A study of Mus musculus with 22 samples.

Results

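The 8 genes described here, Pgr, Ptgs2, Tnfaip6, Ptx3, Has2, Areg, Ereg and Btc, act in ovulation and in the expansion of the cumulus, the layer of somatic cells around the oocyte. They were taken by gene name from a table of 34745 genes, and all 8 were found there once. The table gives their level in 22 libraries of whole ovary from the outbred CD1 mouse, 2 per age. Fetal ovaries were taken on days 13, 15 and 17 of gestation, written E13, E15 and E17. Postnatal ones came from newborns (P0), from days 3, 7, 14, 21 and 60 after birth (P3 to P60), and from animals aged 1 year (Y1) or 2 years (Y2). All groups were wild-type ovaries, dissected in cold buffer and frozen, with no treatment named in the labels, and age is the only difference that the labels give between them.

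In a cycling mouse, the surge of luteinizing hormone (LH) acts on granulosa cells of large follicles, which release the EGF-like ligands amphiregulin, epiregulin and betacellulin. These ligands act on the EGF receptor of cumulus cells, which then make hyaluronan and the proteins that join it into a matrix. Granulosa cells also switch on the progesterone receptor, which is needed for the follicle to rupture. The program runs for hours, so that it would appear in single libraries rather than in every animal of an age. The question asked of the table was whether any library carried such a pattern.

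No adult library did, by the rule used here. A library was counted for a gene if its FPKM + 1 was at least 4 times that of the highest of the 6 libraries of P7, P14 and P21, ages before puberty. FPKM are fragments scaled by transcript length and by the size of the library. In the 6 libraries of P60, Y1 and Y2, 0 of the 8 genes passed, and 0 passed at 2 times. The added 1 mutes low genes, and Pgr, Ptgs2, Areg and Btc were under 1 FPKM in every library. Ptgs2 in P60 replicate 1 was 3.95 times the highest juvenile library in FPKM but 1.56 times in FPKM + 1. The count of 0 therefore does not show that such genes did not rise. The genes that rose highest in adults were Ptgs2, which reached 0.934 FPKM in P60 replicate 1, and Tnfaip6, which reached 2.21 FPKM in the same library. Outside the adult ages, Has2 passed the mark of 4 times in the 4 libraries of E13 and E15. The labels give no cycle stage or hormone treatment, and no library of an ovary known to be in a surge was analysed here, so the level that a surge gives in this table is not known.

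Estimated depth was 11510000 to 18190000 reads per library, with 12656 to 13566 genes at 1 FPKM or more. For the 8 genes every FPKM value fell on a whole number of reads, within 0.062 reads, so the reads behind each value are given below. For Tnfaip6, Has2, Areg and Ereg, which have a single annotated transcript, the read counts follow from that transcript's length. For the other 4 the length was fitted, as the shortest that made every value whole. It came to 12576 bases for Pgr, 4694 for Ptgs2, 3084 for Ptx3 and 7591 for Btc, longer than the longest annotated transcript of each (6889, 4453, 1898 and 4027 bases). The counts of these 4 genes therefore rest on a fit, and a longer length that is a multiple would give proportionally more reads. Intervals on reads are exact 95% Poisson intervals and cover counting error only. Whether both libraries of an age are separate animals is not stated, and p-values therefore cover the spread of these libraries alone, which could be technical. In bulk tissue, fewer cells of a type and less RNA per cell cannot be told apart.

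Promoter windows of 6 of the 8 genes were in the RefSeq table of the GRCm38.p6 build, each from 250 bases before the annotated start to 50 after it. The surge reaches granulosa genes largely through cyclic AMP, and its binding site for CREB-family factors, the CRE, is TGACGTCA. That site, which reads the same on both strands, was in 1.79% of 32851 windows of this length and, among the 6 genes, in Areg. The shorter core of the CRE, TGACG, on either strand was in 20.8% of windows and in those of Areg, Btc and Ptgs2. An E-box, CACGTG, was in 7.15% of windows and in that of Ptgs2. The stretches of Areg and Ptgs2 are shown because they hold these matches, in capitals: the CRE of Areg, 61 to 54 bases before its start, and in Ptgs2 a core on the other strand that overlaps the E-box, 13 to 21 bases after its annotated start. Both are on the plus strand, the first at chr5:91139498-91139577 and the second at chr1:150100033-150100062.
Areg: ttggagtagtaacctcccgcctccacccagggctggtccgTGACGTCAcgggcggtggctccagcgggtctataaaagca
Ptgs2: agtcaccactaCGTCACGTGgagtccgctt
A match is a string of letters only, and factor binding was not measured.

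**Figure D1:**
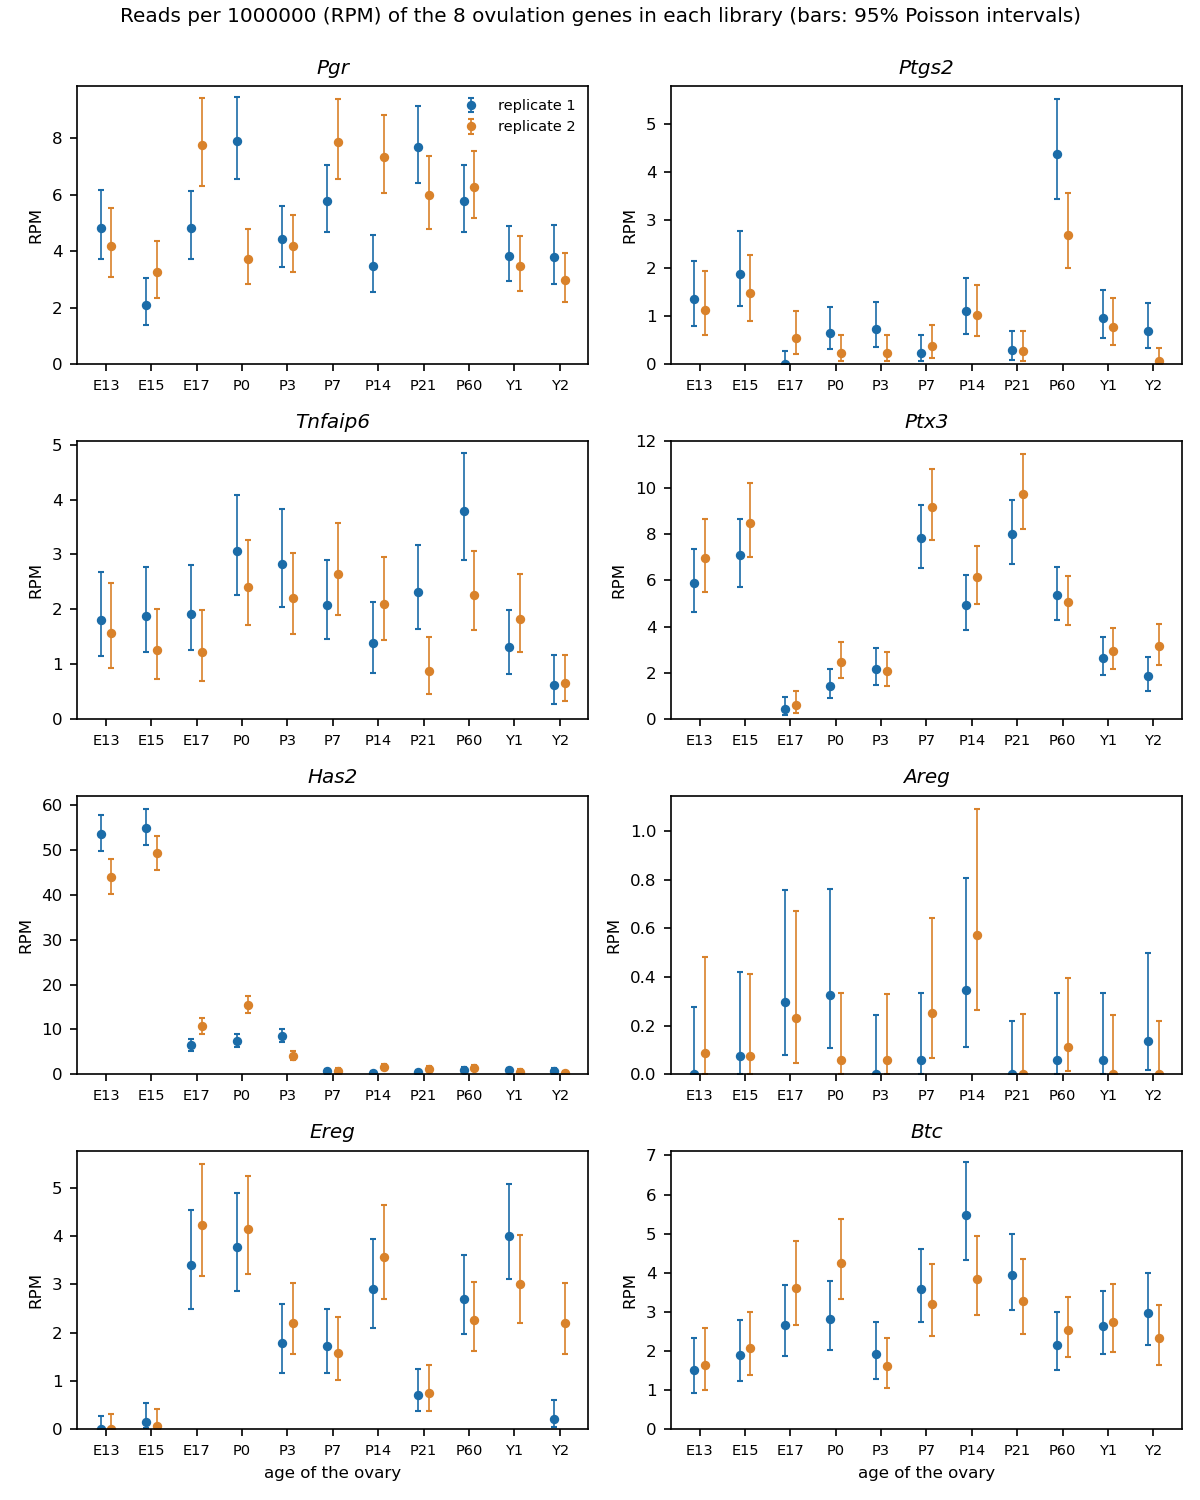
Reads per 1000000 reads of the library (RPM; vertical axis, linear, a separate scale for each gene) of the 8 genes in each library by age of the ovary, with both replicates as points and exact 95% Poisson intervals as bars. Has2 stood highest at E13 and E15, Ptgs2 at P60, and Areg had at most 9 reads in any library.

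Pgr, on chromosome 9 (8899833 to 8968611, plus strand, GRCm38), encodes the progesterone receptor, a nuclear receptor that granulosa cells switch on after the surge and that stromal and surface cells of the reproductive tract also carry. It was under 1 FPKM in every library. Its levels ranged from 0.168 FPKM (28 reads, E15 replicate 1) to 0.628 FPKM (121 reads, P0 replicate 1). In juvenile libraries the lowest, median and highest values were 0.275, 0.529 and 0.625 FPKM, and in adult libraries 0.237, 0.303 and 0.498 FPKM. The adult values lay within or below the juvenile range. P60 replicates held 96 and 114 reads, Y1 replicates 64 and 53, and Y2 replicates 55 and 50, so both P60 libraries were above all 4 older ones, and the highest library at P60 stayed under 3 of the 6 juvenile libraries. In order of mean level the ages ran from P21, P7 and E17 down to Y1, Y2 and E15, and in 9 of the 10 neighbouring pairs of that order the libraries overlapped. The gene did not pass the filter of the main fit, at least 1 FPKM in at least 2 libraries. In a fit to all 26554 genes with a value above 0 its F test over ages had an adjusted p of 0.156 (limma with Benjamini-Hochberg adjustment).

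Of the 8 genes, 4 passed the filter (Tnfaip6, Ptx3, Has2 and Ereg) and 4 did not (Pgr, Ptgs2, Areg and Btc). Has2 passed through fetal and newborn libraries and Ereg through 1 library each of E17 and P0, so these had to differ to be tested, and their counts are a description. In the F test over the 11 ages all 4 tested genes were called, where 88.1% of all 16117 tested genes were. In the fit with no filter 7 of the 8 were called, all but Pgr, where 65.9% of genes were. Most genes of the ovary changed over these ages. The count of the main fit is near its background. The count with no filter is above its own, over only 8 genes, and that gap was not tested.

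The EGF-like ligands Ereg, Areg and Btc lie in that order on chromosome 5, next to Epgn, a further ligand of the same family. Ereg spans 91074622 to 91093646 and Areg 91139599 to 91148432, both on the plus strand and 45.953 kb apart. Btc follows 208.829 kb further on, at 91357261 to 91402994 on the minus strand.

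Areg was the scarcest of the 8 genes, with 42 reads over all 22 libraries. It had 5 and 9 reads at P14, its highest age, against 0 and 0 at P21. Adult libraries held 1 and 2 reads at P60, 1 and 0 at Y1, and 2 and 0 at Y2. The upper limit of the Poisson interval was 0.334 and 0.397 RPM in the P60 libraries, and in the Y1 and Y2 libraries it lay between 0.219 and 0.497. At 0 to 2 reads, differences among the adult libraries were not detectable at this depth. With no filter, limma gave a fall from P14 to P21 of 0.46 on the log2(FPKM + 1) scale (SE 0.09, adjusted p = 0.00261, where 18.1% of genes were called). The adult mean was lower than the juvenile mean by a log2 difference of -0.14 (adjusted p = 0.0467), a call lost in 23 of 28 alternatives, with adjusted p from 0.0211 to 0.194.

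Ereg, epiregulin, was the ligand whose level moved furthest. Fetal libraries had 0 and 0 reads at E13, 2 and 1 at E15, then 46 and 55 at E17, or 0.824 and 1.02 FPKM. The E17 libraries stood far above all 4 earlier ones, and the ratio of the mean FPKM of E17 to that of E15 was 33.9, over an E15 level of 3 reads in all. The step was called (log2 difference 0.90, SE 0.14, adjusted p = 0.000209, where 34.4% of genes were called). Ereg passed the filter only through 1 library each of E17 and P0, so that p-value is a description. With no filter the adjusted p was 0.000218, where 22.6% of genes were called. Levels held at P0, with 58 and 69 reads, and stood at 27 and 37 reads at P3 and 29 and 25 at P7. They reached 42 and 56 reads at P14 and then fell to 12 and 11 at P21 (log2 difference -0.60, SE 0.14, adjusted p = 0.00535, where 26.8% of genes were called). After quantile normalization that adjusted p was 0.0517.

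In adults, Ereg had 45 and 41 reads at P60, 67 and 46 at Y1, and 3 and 37 at Y2. Both P60 libraries were above both P21 libraries, 0.654 and 0.546 against 0.173 and 0.179 FPKM, and the difference missed the threshold (log2 0.44, SE 0.14, adjusted p = 0.0509, where 13.5% of genes were called). It passed when 1 Y2 library was left out (adjusted p = 0.00223 without replicate 1 and 0.00222 without replicate 2). The Y2 libraries differed from each other by 0.55 on the log2 scale, the widest gap of the 8 genes at that age. Over all tested genes the 95th percentile of that gap at Y2 was 1.12. Their fall from Y1 was called (log2 difference -0.54, adjusted p = 0.0125, where 21.8% of genes were called), and it lost the call without Y2 replicate 1 (-0.27, adjusted p = 0.0802) or Y1 replicate 1 (-0.45, adjusted p = 0.115). The highest adult library, at 0.971 FPKM, lay below 2 of the libraries of E17 and P0. Ereg shares exon bases with Gm19610 on the other strand, and whether the counting used strand is not stated, so reads there cannot be told apart.

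Btc, betacellulin, was found in every library, with 19 to 79 reads. Its highest age was P14, with 79 and 60 reads, or 0.721 and 0.505 FPKM. Adult libraries ran from 0.285 to 0.389 FPKM with a median of 0.340, all below the juvenile libraries, which ran from 0.423 to 0.721 with a median of 0.488. In the fit with no filter the adult mean was lower (log2 difference -0.17, SE 0.04, adjusted p = 0.00566, where 40% of genes were called). The juvenile mean was in turn higher than the fetal one (log2 0.23, SE 0.04, adjusted p = 0.000765, where 45.4% were called). A fall from P0 to P3 was also called (-0.25, adjusted p = 0.0427, where 15.7% were called), and it was lost in 13 of 27 alternatives, with adjusted p from 0.0153 to 0.277 and a value of -0.15 without P0 replicate 2.

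The wider EGF family list held 11 further ligands, receptors and sheddases, of which 8 were tested. Adults against juveniles, 0 were higher and 4 lower, with a median log2 difference of -0.26 where all tested genes had -0.09. Over all tested genes 20.5% were called higher and 37.3% lower in that comparison. The 3 largest decreases were in Erbb2, a co-receptor of the family (log2 difference -1.30, adjusted p = 1.56e-06), Nrg1, a neuregulin (-0.87, adjusted p = 2.04e-05), and Hbegf, another EGF-like ligand (-0.58, adjusted p = 0.000127). The receptor Egfr, named after its values were seen, stood at 14.5 and 14.6 FPKM at P60 and at 14.9 and 14.2 at P21. By limma its adult mean was below the juvenile one (log2 difference -0.20, adjusted p = 0.00218), and Y2 was below P60 (-0.85, adjusted p = 2.49e-06). From P21 to P60 limma called 0 of the 8 tested members of the list.

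Ptgs2, on chromosome 1 (150100031 to 150108227, plus strand), encodes the inducible cyclooxygenase that makes prostaglandin E2 in the cumulus after the surge. It was highest at P60, with 73 and 49 reads, or 0.934 and 0.574 FPKM. The next highest library, E15 replicate 1, had 25 reads, and P21 had 5 and 4. In RPM the P60 intervals, 3.44 to 5.51 and 1.99 to 3.56, lay above those of both P21 libraries, which reached up to 0.695 and 0.687. The mean at P60 was 12.5 times that at P21 in FPKM.

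Of the 4 genes that the main fit could not test, Ptgs2 was the only one called higher at an adult age. With no filter, limma gave a log2 difference of 0.72 between P60 and P21 (SE 0.09, adjusted p = 0.000188, where 8.16% of genes were called). Fitted on the P21 and P60 libraries alone, its adjusted p was 0.11. With a pseudocount of 0.1, which mutes low genes less, the difference was 2.38 (adjusted p = 0.00297, where 8.05% of genes were called). The level was lower again at Y1, with 16 and 12 reads (log2 difference -0.56, SE 0.09, adjusted p = 0.00164, where 8.25% of genes were called). At Y2 it stood at 10 and 1 reads, below P60 by a log2 difference of -0.70 (SE 0.09, adjusted p = 9.54e-05, where 18% of genes were called), a call lost on the P60 and Y2 libraries alone (adjusted p = 0.207). Against the highest juvenile library, P14 replicate 1 at 0.236 FPKM, P60 replicate 1 was 3.95 times higher in FPKM and 1.56 times in FPKM + 1. With no pseudocount and a mark of 2 times, Ptgs2 passed in both P60 libraries, and no other of the 8 genes passed in an adult library.

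Markers of other states moved with Ptgs2 at P60. The summed level of 18 immediate early genes, which dissection can induce, was 193 and 172 FPKM at P60 and 124 and 125 at P21, and 7 of the 18 were called higher and 0 lower, where 6.82% of all tested genes were called higher and 6.7% lower. The sum of 14 macrophage and neutrophil markers was 572 and 805 FPKM at P60 and 209 and 188 at P21, and 7 of the 12 tested were called higher and 0 lower, beside the same 6.82% and 6.7%. At Y2 the first sum was 186 and 224 FPKM and the second 1177 and 574, and Ptgs2 had 10 and 1 reads. From P60 to Y2, limma called 1 of the 18 immediate early genes higher and 3 lower. Of the 12 tested macrophage and neutrophil markers 4 were higher and 1 lower. Over all tested genes 10.8% were higher and 17.4% lower in that comparison. Their part in the Ptgs2 level was not tested. Il6, an interleukin that cumulus cells also make, was 0.323 FPKM in P60 replicate 1 and 0.0135 in replicate 2, and was named after its values were seen.

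Ptgs2 was also present before birth, with 18 and 13 reads at E13 and 25 and 20 at E15, then 0 and 7 at E17. The fall after E15 was called with no filter (log2 difference -0.36, SE 0.09, adjusted p = 0.00942, where 22.6% of genes were called). It was lost without E15 replicate 1 (adjusted p = 0.0721) or E17 replicate 1 (adjusted p = 0.0897). Among 15 other prostaglandin genes, 14 were tested. Adults against juveniles 5 were higher and 5 lower, where 20.5% of all tested genes were higher and 37.3% lower. From P21 to P60 2 were higher and 1 lower, where 6.82% and 6.7% of all tested genes were. Ptgfr, the receptor of prostaglandin F2α and a luteal gene, rose from 0.298 to 36.5 FPKM (log2 difference 4.84, adjusted p = 0.0221). Ptgds, a prostaglandin D synthase, rose from 1.29 to 7.20 FPKM (1.84, adjusted p = 0.00714). Ptges, the E synthase that works downstream of Ptgs2, fell from 44.1 to 29.5 FPKM (-0.57, adjusted p = 0.0147).

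**Figure D2:**
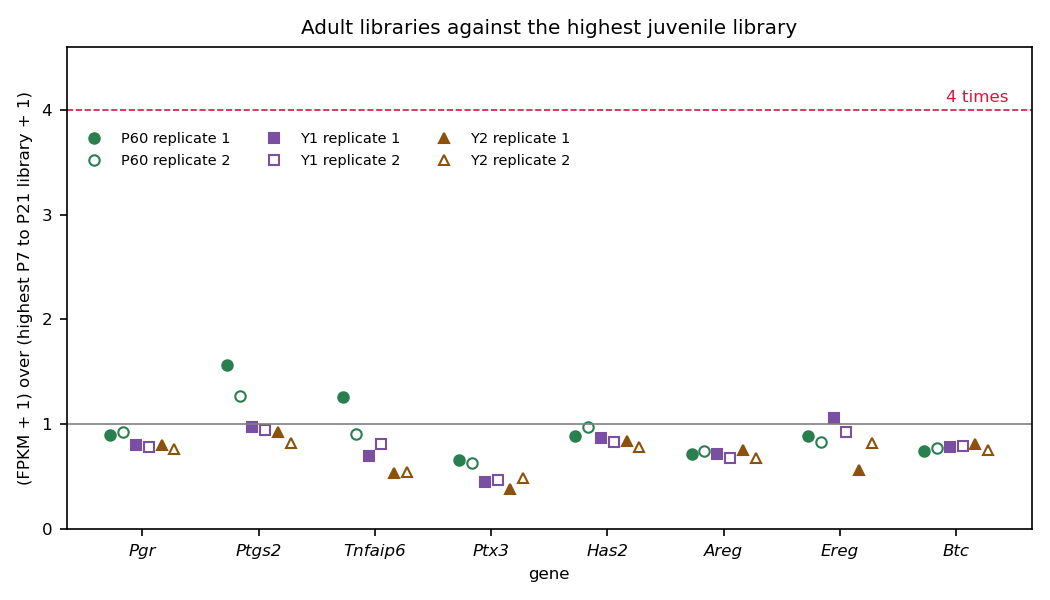
FPKM + 1 of each adult library divided by that of the highest juvenile library (P7, P14 or P21), per gene, with 1 point per library and the mark of 4 times as a dashed line. The highest point is Ptgs2 in P60 replicate 1 at 1.56, and all points of Pgr, Ptx3, Has2, Areg and Btc lie under 1.

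Has2, on chromosome 15 (56665627 to 56694539, minus strand), encodes the hyaluronan synthase of the expanding cumulus. Its highest levels were fetal. E13 libraries had 12.7 and 10.4 FPKM (712 and 506 reads), and E15 libraries 12.98 and 11.6 FPKM (730 and 667 reads). At E17 the level was 1.52 and 2.52 FPKM, with no overlap, a 6.10-fold fall of the mean FPKM (log2 difference -2.16, SE 0.24, adjusted p = 1.17e-05). Has2 passed the filter only through fetal and newborn libraries, so that p-value is a description. With no filter the adjusted p was 3.37e-05, where 22.6% of genes were called.

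From P0 to P3 Has2 ranged between 0.969 and 3.65 FPKM, and its replicates differed by 0.76 on the log2 scale at P0 and 0.61 at P3, the widest gaps of the 8 genes at those ages. It then fell to 0.141 and 0.193 FPKM at P7, 10 and 13 reads (log2 difference -1.06, SE 0.24, adjusted p = 0.00695, where 16.8% of genes were called). That call was lost without P3 replicate 1 (-0.75, adjusted p = 0.1) or P7 replicate 1 (adjusted p = 0.0517). From P7 on the gene stayed low in each of 12 libraries, with 3 to 26 reads. P60 had 16 and 26 reads, Y1 14 and 9, and Y2 10 and 6. Juvenile libraries ran from 0.0491 to 0.377 FPKM and adult libraries from 0.0843 to 0.337, so the ranges overlapped (log2 difference 0.01, SE 0.14, adjusted p = 0.974). The juvenile mean was below the fetal one by a log2 difference of -2.74 (SE 0.14, adjusted p = 3.51e-10, where 60.6% of genes were called). With no filter the adjusted p of that difference was 2.14e-09, where 45.4% of genes were called.

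Some markers of other tissue also fell between E15 and E17, and others did not. The summed level of 11 smooth muscle and stroma markers was 602.3 and 590 FPKM at E13, 1510 and 1546 at E15 and 578 and 614 at E17. Of 9 tested oviduct and uterus markers 4 were called lower from E15 to E17 and 0 higher, where 15.6% of all tested genes were lower and 18.8% higher. The 4 were Wnt7a, Pax8, Sox17 and Esr1 (log2 differences -1.60, -1.09, -0.78 and -0.59), and Foxj1 went down with no call (-0.50). The summed level of the list was 91.1 and 93.3 FPKM at E15 and 103 and 101 at E17. A sum is weighted to its most abundant genes, and Tubb4b alone ran from 64.1 to 111 FPKM in juvenile libraries. Ltf, Tubb4b, Cfap126 and Ovgp1 of that list went up, with no call (log2 differences 1.09, 0.31, 0.28 and 0.22). Pax8 and Wnt7a, the members with the largest falls and named after their values were seen, stood at 4.89 and 5.11 FPKM and at 5.20 and 5.61 FPKM at E13. At E17 they stood at 1.29 and 1.16 FPKM and at 1.18 and 0.612 FPKM. Their part in the Has2 level was not tested. Fetal columns of the table have fewer decimals than postnatal ones, and whether 1 quantification made both is not known here. Has2 shares 182 exon bases with the antisense gene Has2os, so reads there cannot be told apart.

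Tnfaip6, on chromosome 2 (52038009 to 52056686, plus strand), encodes TSG-6, which links hyaluronan to the heavy chains of a serum protein. It was present in every library, with 9 to 63 reads. Its order of mean levels began with P60, P0 and P3, and the libraries overlapped in 9 of 10 neighbouring pairs of that order. P60 replicate 1 was highest of all 22 libraries at 2.21 FPKM (63 reads). P60 replicate 2 was at 1.32 FPKM (41 reads), below both P0 libraries, which had 1.79 and 1.40 FPKM. P21 libraries were at 1.36 and 0.510 FPKM, so the P60 and P21 libraries overlapped. The difference was not called (log2 0.53, SE 0.21, adjusted p = 0.122), but it passed without P21 replicate 1 (0.85, adjusted p = 0.0297).

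After P60 the level of Tnfaip6 was lower. Y1 libraries had 0.769 and 1.07 FPKM (22 and 28 reads), and Y2 libraries 0.362 and 0.383 FPKM (9 and 11 reads), the lowest of all. Y2 was below P60 with no overlap, by a log2 difference of -0.99 (SE 0.21, adjusted p = 0.00265, where 28.2% of genes were called). On the P60 and Y2 libraries alone the adjusted p was 0.0975. Cell type markers also moved between P60 and Y2, where 10.8% of all tested genes were higher and 17.4% lower. Of 12 granulosa markers 8 were lower and 0 higher, with a median log2 difference of -1.42, and of 11 smooth muscle and stroma markers 6 were lower and 0 higher. Of 11 surface epithelium markers 8 were higher and 0 lower. Their part in the falls of Tnfaip6, Ptgs2 and Ptx3 from P60 to Y2 was not tested.

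Ptx3, on chromosome 3 (66219910 to 66225805, plus strand), encodes pentraxin 3, which holds the hyaluronan matrix together. It was the gene of the 8 with the most calls, and its highest levels were juvenile. Libraries of P7 had 2.53 and 2.98 FPKM, of P14 1.59 and 1.99, and of P21 2.59 and 3.16 FPKM. P60 libraries had 1.73 and 1.64 FPKM, Y1 0.853 and 0.955, and Y2 0.602 and 1.02 FPKM. Adult libraries overlapped the juvenile ones only where P60 met P14. The adult mean was lower by a log2 difference of -0.71 (SE 0.08, adjusted p = 3.15e-06, where 57.8% of genes were called in either direction), and the call held in all 31 alternatives run. It was the only call among the 4 tested genes in that comparison, so 1 of 4 were called.

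Before birth, Ptx3 took a course like that of Has2 and then parted from it. E13 libraries had 1.90 and 2.25 FPKM (78 and 80 reads), and E15 libraries 2.30 and 2.75 FPKM (94 and 115 reads). At E17 they had 0.144 and 0.199 FPKM (6 and 8 reads), a 14.7-fold fall of the mean FPKM (log2 difference -1.59, SE 0.14, adjusted p = 1.34e-06). Between P3 and P7, where Has2 fell, Ptx3 rose from 0.705 and 0.675 to 2.53 and 2.98 FPKM (log2 difference 1.15, SE 0.14, adjusted p = 4.95e-05). The juvenile mean was above the fetal one (0.56, SE 0.08, adjusted p = 2.84e-05).

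Most of the smaller steps of Ptx3 lost their call when 1 library was left out or the processing changed. The gain from E17 to P0 (log2 difference 0.47, adjusted p = 0.0327, where 16.8% of genes were called) was lost without E17 replicate 1 or 2 or P0 replicate 2 (adjusted p = 0.132, 0.0869 and 0.232), with no filter (0.0514) and after quantile normalization (0.116). The gain from P14 to P21 (0.47, adjusted p = 0.0209) was lost without P14 replicate 1 or P21 replicate 2 (adjusted p = 0.159 and 0.17), and with a pseudocount of 0.1 (0.0746). The fall from P21 to P60 (-0.52, SE 0.14, adjusted p = 0.0211, where 6.82% of genes were called higher and 6.7% lower) was lost without P21 replicate 2 or P60 replicate 1 or 2 (adjusted p = 0.195, 0.084 and 0.125), and with a pseudocount of 0.1 (adjusted p = 0.078). The fall from P60 to Y1 (-0.50, adjusted p = 0.0282, where 14.4% of genes were called) was lost without any 1 of the 4 libraries of those ages (adjusted p from 0.0794 to 0.162), after quantile normalization (0.0917) and with median-of-ratios scaling (0.0528). The fall from P60 to Y2 (-0.58, SE 0.14, adjusted p = 0.0062) kept its call without any 1 library and was lost on the libraries of those ages alone (adjusted p = 0.158).

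**Figure D3:**
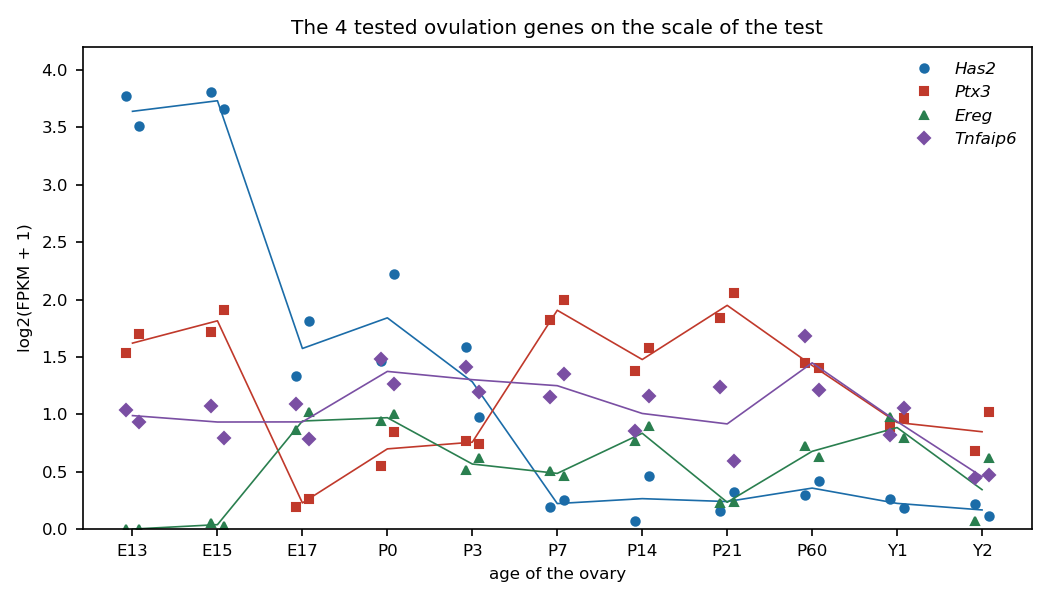
log2(FPKM + 1) of the 4 genes that passed the filter, by age of the ovary, with 1 point per library and a line through the means. Has2 and Ptx3 both drop between E15 and E17, Ereg rises at E17, and Ptx3 is high again from P7 to P21.

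Partners of the matrix were given as a list of 12 genes, of which 8 were tested. Adults against juveniles, 1 was higher and 4 lower, near the 20.5% and 37.3% of all tested genes, with a median log2 difference of -0.34 where all tested genes had -0.09. Vcan, the proteoglycan versican, was lower by a log2 difference of -1.21 (adjusted p = 9.84e-07), Hmmr, a hyaluronan receptor, by -1.09 (adjusted p = 7.72e-07) and Hapln1, a link protein, by -0.65 (adjusted p = 8.7e-07). From P21 to P60, Cd44, the main hyaluronan receptor of cumulus cells and also of leukocytes, rose from 1.90 to 5.66 FPKM (log2 difference 1.20, adjusted p = 1.5e-05). In that step Itih2, which supplies a heavy chain for Tnfaip6 to transfer, fell from 19.6 to 8.89 FPKM (-1.07, adjusted p = 0.0174).

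Genes near the 8 in the ovulatory program were read in the same libraries. Of 24 other periovulatory granulosa genes 21 were tested, and in adults against juveniles 12 were higher and 2 lower, where 20.5% and 37.3% of all tested genes were, with a median log2 difference of 0.31 against -0.09 over all. The largest gains were in Timp1, an inhibitor of metalloproteinases (2.94, adjusted p = 1.27e-08), Runx2, a transcription factor (2.55, adjusted p = 2.92e-05), and Sgk1, a kinase (2.35, adjusted p = 5.33e-06). From P21 to P60, 7 were higher and 0 lower, where 6.82% and 6.7% of all tested genes were, among them Timp1 (13.1 to 69.9 FPKM, adjusted p = 0.000297), Runx2 (0.173 to 3.73 FPKM, adjusted p = 0.0468) and Cited4, a transcriptional co-activator (4.18 to 15.3 FPKM, adjusted p = 0.00488). The summed level of the 24 genes was 831 and 769 FPKM at P21 and 876 and 832 at P60. At Y1 it was 1650 and 1360 FPKM, and at Y2 967 and 1130. Edn2 and Snap25, named after their values were seen, are genes of the hours before rupture. Edn2 was 0 and 0.226 FPKM at P60 and 0.285 and 0.413 at P21. Its mean over all adult ages was above the juvenile mean (log2 difference 0.37, SE 0.10, adjusted p = 0.00462 by limma). The log2 difference of Y2 from P60 was 0.44 (adjusted p = 0.0624), so its P60 values do not stand for all adult libraries. Snap25 was 0 and 0.0149 FPKM at P60 and 0.00807 and 0.00909 at P21.

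The receptor and the products of ovulation were measured in adults. Lhcgr, the LH receptor, stood at 137 and 166 FPKM at P60 and at 25.4 and 22.5 at P21 (log2 difference 2.61, SE 0.73, adjusted p = 0.0271). It was not as high in all adult libraries, which ran from 31.9 FPKM, at Y1, to 496, with a median of 88.7. Juvenile libraries reached up to 29.6 FPKM. All 12 tested genes of progesterone production and the corpus luteum, the body that forms from an ovulated follicle, were higher in adults than in juveniles, where 20.5% of all tested genes were, with a median log2 difference of 2.51. Sfrp4, a secreted Wnt antagonist, was higher by 6.81 (adjusted p = 8.41e-06) and Akr1c18, which breaks down progesterone, by 6.10 (adjusted p = 1.92e-06). The summed level of that list was 3289 and 3361 FPKM at P60, 15409 and 13068 at Y1, and 2238 and 11233 at Y2. The summed level of the 8 ovulation genes was 6.55 and 5.34 FPKM at P60, 3.70 and 3.70 at Y1, and 2.13 and 2.58 at Y2, against 4.68 to 6.43 in juveniles. The Y2 libraries differed widely in luteal genes, and Lhcgr was 37.5 FPKM in replicate 1 and 496 in replicate 2. The 12 granulosa markers were summed at 2320 and 2621 FPKM at P60 and at 3261 and 3378 at P21.

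The cells that could carry these genes were followed by their own markers, compared between adults and juveniles, where 20.5% of all tested genes were higher and 37.3% lower. Of 12 granulosa markers 3 were higher and 5 lower, with Amh, a hormone of small growing follicles, at a log2 difference of -1.99 (adjusted p = 2.05e-08), Esr2, an estrogen receptor, at -1.01 (adjusted p = 4.24e-08) and Inhba, an activin subunit, at 1.04 (adjusted p = 0.000835). All 8 oocyte markers were lower, with a median log2 difference of -3.20, and Gdf9, a growth factor by which the oocyte primes the cumulus, was lower by -2.87 (adjusted p = 5.14e-08). Of the 9 gonadotropin receptors and oocyte signals, which include Gdf9 and Lhcgr, 3 were higher and 4 lower. Surface epithelium had 3 of 11 markers higher and 2 lower, smooth muscle and stroma 1 of 11 higher and 3 lower, and oviduct and uterus 1 of 9 tested higher and 5 lower. A count of 3 of 11 in either direction is near those shares. Of the immediate early genes 9 of 18 were higher and 1 lower, and of the macrophage and neutrophil markers 10 of 12 tested were higher and 0 lower, led by Lyz2, a lysozyme (3.02, adjusted p = 5.21e-08). Their part in the levels of the 8 genes was not tested.

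**Figure D4:**
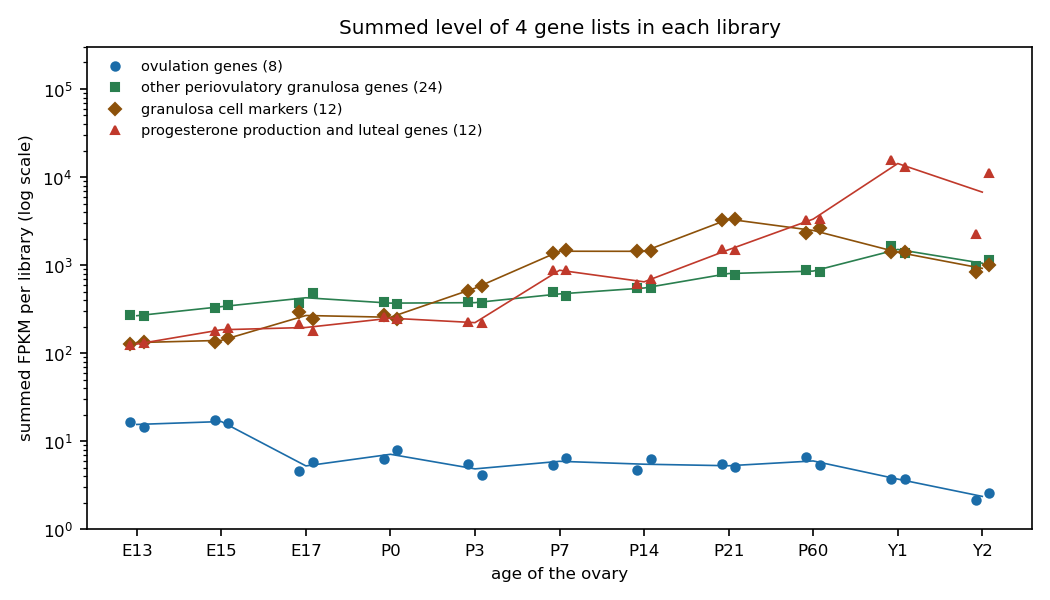
Summed FPKM per library (log axis) of 4 gene lists by age of the ovary, with 1 point per library and a line through the means. The number of genes stands beside each list. Luteal genes climb to 13068 and 15409 FPKM at Y1, and the 8 ovulation genes stay between 2.13 and 17.3 FPKM.

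The libraries of an age also differed from each other. At P60 4 of the 8 were higher in replicate 1 and 4 in replicate 2, and the median absolute difference was 0.08 on the log2 scale, against 0.09 over all tested genes. At every age the 8 include 4 genes that did not pass the filter. The scale of log2(FPKM + 1) mutes differences of such low genes, so the medians are not of like genes. P60 replicate 1 was the highest of the 22 libraries for 2 genes, Ptgs2 and Tnfaip6, and no library was highest for more. At Y1 and Y2, 5 were higher in replicate 1 and 3 in replicate 2. At E17, P7 and P14, 6 of the 8 were higher in replicate 2, and at P3 6 were higher in replicate 1. The median absolute difference of the 8 genes was above that of all tested genes at P0 (0.25 against 0.14) and at P14 (0.20 against 0.13). It was above by less at E17 (0.153 against 0.145), P7 (0.110 against 0.108) and P21 (0.105 against 0.085), and below at the remaining ages. At Y2 it was 0.127 against 0.275, and that background, with a 95th percentile of 1.12, was the widest of all ages. Being below it at Y2 therefore does not show close libraries.

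The patterns most like those of the tested genes were found among 10199 genes with a highest age mean of at least 5 FPKM, by Pearson's r of log2(FPKM + 1) over the 22 libraries, which share age and scaling. Has2 was nearest to Klk8 (r = 0.98), Nr2f1 (0.98) and Rarb (0.98). Ptx3 was nearest to Figf (0.88), Scg5 (0.82) and Ngfrap1 (0.81). Ereg was nearest to Ttyh2 (0.84), Apeh (0.83) and Qsox1 (0.83), and Tnfaip6 to Col15a1 (0.75), Antxr1 (0.74) and Calu (0.72).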

How the data were processed

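RNA from 22 whole mouse ovary samples was sequenced. The authors deposited FPKM in 1 table of genes. HISAT2, StringTie, edgeR and the mm10 build are named, per the submitters' processing notes. The series' design text names TopHat, and which aligner made the table is not settled. Their versions, annotation and strand handling are not stated there.

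FPKM scale within a library, so a rise of abundant transcripts lowers all others. Depth was estimated from low FPKM values, 94.4% to 96.8% of which were whole within 0.02 reads. A count test was not run, because the reads of most genes could not be recovered.

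Differences were tested on log2(FPKM + 1), which understates changes of low genes. A gene entered the fit at 1 FPKM or more in 2 or more libraries, which left 16117 of 34745. The fit used limma 3.58.1 in R 4.3.3 with age as a factor of 11 levels, eBayes with trend and 11 residual degrees of freedom. Benjamini-Hochberg adjustment ran over all tested genes, and calls were at 0.05. Adult is the mean of P60, Y1 and Y2, juvenile of P7, P14 and P21, and fetal of E13, E15 and E17. The fit was tested on simulated data. Python 3.11.15, pandas 2.3.3 and numpy 2.4.6 were used for tables, and gene models were GENCODE M21 (GRCm38).

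Besides the 8 genes there were 13 lists. The text names all 8, the 3 list genes with the largest called change between adults and juveniles (and P60 against P21 for 4 lists), and the 3 most alike genes. Of these, some are left out for space, and others are named after their values were seen, as stated. The 8 genes and the lists were chosen with earlier results of these data known. Alternatives were the pseudocount, filter, scaling, eBayes trend, samples fitted, replicate block and leaving out each library. The fits of unfiltered genes with each alternative, with a pseudocount of 0.1 too, and the marks with no pseudocount were chosen after seeing the data.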

Additional observations from a re-analysis of the deposited data

How the results depend on the processing

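The count of 0 ovulation genes past the mark in any adult library was the same at 2 times, under median-of-ratios scaling and with no pseudocount. It was 1 (Ptgs2 at P60) with no pseudocount and 2 times. The counts of ovulation genes called by limma were 4 in the F test (7 with no filter, and 7 with no filter and a pseudocount of 0.1), 1 for adults against juveniles (4, 3, and 2 after quantile normalization), and 2 for juveniles against fetuses (4 with no filter and a pseudocount of 0.1). For P60 against P21 the count was 1, with 0 at a pseudocount of 0.1, 2 with no filter and 2 with eBayes without trend. For Y2 against P60 it was 2, and 0 on the ages compared alone, where fewer samples were fitted. Leaving out 1 library gave 3 to 4, 1 to 2, 2 to 3, 0 to 2 and 2 to 3 in that order, and 9 to 14 over the 10 steps between ages, where the main count was 11. The libraries whose absence moved a count by over 1.5 times were Y2 replicate 1 (2 for adults against juveniles) and, for P60 against P21, both libraries of P21, P60 and Y2. The other ranges hold smaller moves, among them Ereg, newly called for juveniles against fetuses without either Y2 library (adjusted p = 0.00381 and 0.0038) and for Y2 against P60 without Y2 replicate 2 (0.00065). With the replicate block the 6 counts were 4, 1, 2, 1, 2 and 12. Deviations of same-numbered libraries had a median correlation of -0.00291, from -0.129 to 0.265 over 55 pairs of ages. A pairing shared by all ages was not seen, and links between single ages were not tested. Under the block the unfiltered calls of Areg for adults against juveniles (adjusted p = 0.0581) and of Btc from P0 to P3 (0.0556) were lost.

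Of the values for single genes, 1175 kept their side of the threshold, 69 no longer passed it and 17 newly passed. None of the called values turned direction, and turns of values that were not called were not counted apart. Scaling moved the share of higher genes among all calls: for adults against juveniles it was 35.4%, and 49.3% under median-of-ratios scaling and 47.3% under quantile normalization. From P60 to Y1 it was 30.9%, 46.7% and 45.9%, from P14 to P21 33.9%, 43.6% and 50.2%, and from P7 to P14 66.9%, 64.2% and 56.7%. Depth limits Areg most, with 0 to 9 reads per library.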
